A study of Homo sapiens with 12 samples.

Results

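The genes of cholesterol synthesis and of its control by SREBP (sterol regulatory element binding protein) were followed in HCT116 cells, an established human colorectal cancer line. The genes were a given list of names, and the list itself used no measured value, although it was drawn up with earlier results of these data known. All 28 were found among the 56537 gene names whose transcripts matched an annotated one (class code =) or shared a splice junction with one (class code j). The FPKM values of their 395 transcripts, which are fragment numbers scaled to transcript length and library size, were summed per gene. Cells were kept at 21% oxygen (0 h) or moved to 1% O2 for 1, 2 or 24 h, with 3 replicate libraries of polyadenylated RNA at each of the 4 time points. Hypoxia was begun 24 h after plating, and matched culture times for the 0 h and 24 h cells were not stated, so time in culture and time in hypoxia cannot be told apart. No gene was altered and no agent was added in any group, and all cells came from 1 line.

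Cholesterol is built from acetyl-CoA through mevalonate and isoprenoid units to squalene, which is closed into the ring of lanosterol and then trimmed to cholesterol. The steps catalysed by SQLE, CYP51A1, MSMO1 and SC5D use molecular oxygen. Transcription of the pathway is driven by SREBP-1 and SREBP-2 (genes SREBF1 and SREBF2), which stay bound to SCAP in the endoplasmic reticulum while sterols and the INSIG proteins hold them there, and which are otherwise carried to the Golgi and cut by proteases such as the one encoded by MBTPS1. INSIG1 is itself a target of SREBP.

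The upstream sequences of the 4 genes with the highest fold changes at 24 h are shown because their level is what the results turn on. RefSeq start sites (GRCh38.p14) were matched for 25 of the 28 genes, and the 200 bases before the first listed start are printed 5′ to 3′ on the strand of the gene. Capitals mark ACGTG (the core of the hypoxia response element), CCAAT (the box bound by NF-Y) and TCACNCCAC (a form of the sterol regulatory element), each searched on both strands.
INSIG2, chr2:118088271-118088470, plus strand: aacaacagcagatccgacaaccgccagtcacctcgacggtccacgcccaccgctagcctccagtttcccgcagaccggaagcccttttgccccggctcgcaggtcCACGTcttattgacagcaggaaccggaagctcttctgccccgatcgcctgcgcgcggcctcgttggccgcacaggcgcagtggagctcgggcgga
INSIG1, chr7:155297678-155297877, plus strand: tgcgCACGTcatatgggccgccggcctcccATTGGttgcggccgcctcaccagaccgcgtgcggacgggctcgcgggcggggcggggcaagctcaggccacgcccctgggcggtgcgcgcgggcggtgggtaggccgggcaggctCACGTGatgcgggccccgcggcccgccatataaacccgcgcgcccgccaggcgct
SREBF2, chr22:41832905-41833104, plus strand: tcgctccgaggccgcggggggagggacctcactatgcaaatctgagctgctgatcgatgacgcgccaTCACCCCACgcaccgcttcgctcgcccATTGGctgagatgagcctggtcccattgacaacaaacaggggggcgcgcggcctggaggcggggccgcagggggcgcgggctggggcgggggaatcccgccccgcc
STARD4, chr5:111512536-111512735, minus strand: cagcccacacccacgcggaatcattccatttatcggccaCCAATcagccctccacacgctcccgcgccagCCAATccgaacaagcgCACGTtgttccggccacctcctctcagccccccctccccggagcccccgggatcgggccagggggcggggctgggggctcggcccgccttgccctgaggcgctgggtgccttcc
INSIG2 held ACGTG once, 95 bases before its start. INSIG1 held it 196 bases before the start and, as the palindrome CACGTG that reads ACGTG on both strands, 55 bases before it. INSIG1 also held CCAAT 170 bases before the start. STARD4 held ACGTG 114 bases before the start and CCAAT at 161 and 130 bases, and SREBF2 held the sterol element 133 bases and CCAAT 106 bases before its start. In windows of 300 bases around the start (250 before and 50 after), ACGTG occurred in 10 of the 33 promoters listed for the 25 matched genes and in 21.4% of all 35116 promoters, CACGTG in 6 of 33 and in 7.26%, CCAAT in 19 of 33 and in 34.6%, and TCACNCCAC in 1 of 33, that of SREBF2, and in 1.13%. The 8 genes with ACGTG were LSS, SC5D, DHCR7, INSIG1, INSIG2, SCAP, STARD4 and ABCA1, of which only INSIG2 and STARD4 also passed the expression test at 24 h given below.

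The libraries had the markers of an epithelial line, with KRT8 between 786 and 1191 FPKM, KRT18 between 449 and 756 FPKM and EPCAM between 213 and 354 FPKM. KRT19, a further epithelial keratin, passed the limma test, described next, higher at 24 h, from 489.5 ± 52.2 to 970.5 ± 50.6 FPKM (SD, n = 3), and its part in the results was not tested. In the same libraries the intestinal markers CDH17 and VIL1 were at or near 0 (at most 0.0468 and 0.048 FPKM). PTPRC, PECAM1 and COL1A2, which mark leukocytes, endothelium and fibroblasts, did not exceed 0.0301 FPKM. All 6 hypoxia-responsive genes used as a check (CA9, ANKRD37, NDRG1, EGLN3, PDK1 and P4HA1) were called higher at 24 h, with log2 fold changes between 2.96 and 5.45; CA9 had enough signal to be tested only through its 24 h libraries. For 16680 gene names the log2(FPKM + 0.5) values at each time were compared with 0 h in limma. A gene passed the test at a Benjamini-Hochberg adjusted p under 0.01 over all of them, and was called where its log2 fold change also exceeded 1 in size. Of the 28 genes 27 had enough signal to be tested. ABCA1, the exporter of cholesterol to apolipoprotein, did not, with 0.0248, 0.0444 and 0.0515 FPKM at 0 h and 0.165, 0.12 and 0.227 FPKM at 24 h.

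At 24 h, 3 of the 27 genes were called higher, against 8.76% of all genes tested, and 0 were called lower, against 9.51%. The 3 were INSIG2, SREBF2 and STARD4. At any fold change 5 passed the test higher (NPC1 and GGPS1 being the others) and 2 lower (EBP and NSDHL), where 18.3% and 23.2% of all genes did. Groups at 0 h and 24 h did not overlap for 6 of 27 genes in the higher direction and 5 in the lower, beside 27.6% and 32.8% of all genes. The shares for the 27 genes thus lay near or below those of the transcriptome, and the median log2 fold change was 0.07, with −0.05 over all genes. By role, 4 of the 8 tested control and transport genes passed higher and 0 lower, and 1 of 19 enzymes passed higher and 2 lower. The median was 0.82 for the 6 control genes and −0.13 for the 19 enzymes.

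**Figure D1:**
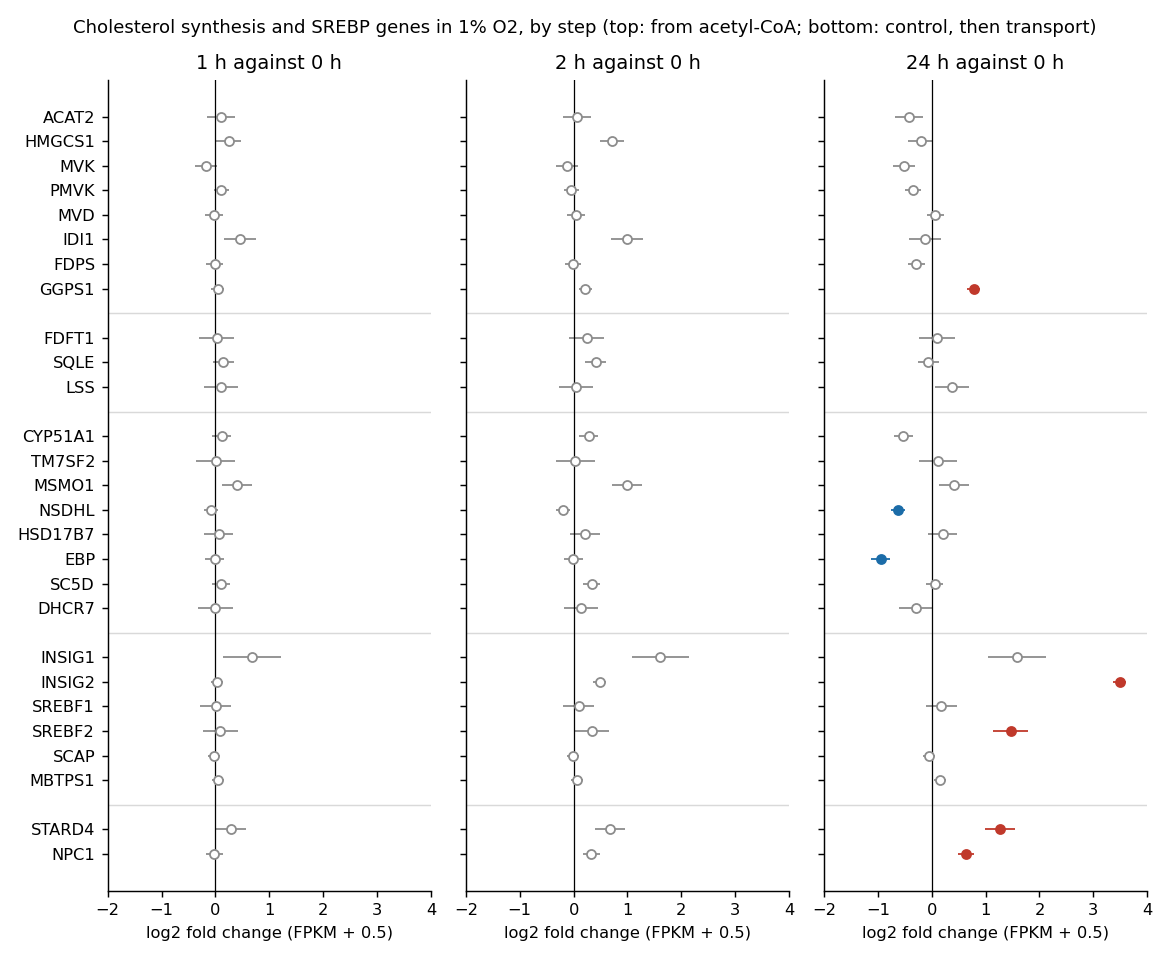
Log2 fold change against 0 h on the log2(FPKM + 0.5) scale for the 27 tested genes at 1, 2 and 24 h, ordered by step from acetyl-CoA at the top to control and transport genes at the bottom, with bars of 1 standard error; filled red and blue points passed the test higher and lower, and open grey points did not. No point is filled at 1 h or 2 h, and at 24 h the red points are INSIG2 at 3.49, SREBF2, STARD4, GGPS1 and NPC1.

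INSIG2 encodes the endoplasmic reticulum protein that, with sterols bound, retains the SCAP and SREBP complex. The gene (ENSG00000125629) lies on the plus strand at chr2:118846028-118868573 of GRCh37. It measured 9.05, 8.39 and 7.87 FPKM at 0 h, 9.23, 8.28 and 8.38 at 1 h, 11.3, 10.9 and 13.9 at 2 h and 92.1, 108.5 and 98.6 at 24 h. Every library at 24 h was far above every earlier one, and those at 2 h lay just above the 0 h range without overlap. The log2 fold change at 24 h was 3.49 ± 0.11 (SE), 11.2-fold on the FPKM + 0.5 scale, with an adjusted p of 5.8e-09 from limma. At 2 h it was 0.48 ± 0.11 with an adjusted p of 0.1. Among the 28 genes INSIG2 ranked 23 by mean FPKM at 0 h and 1 at 24 h. Its 24 h libraries overlapped with those of FDPS, the next in order, which measured 99.1, 67.0 and 58.5 FPKM.

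INSIG1 (ENSG00000186480, chr7:155089486-155101945, plus strand) carries out the same retention. It measured 6.89, 8.36 and 15.2 FPKM at 0 h, 12.4, 10.3 and 29.7 at 1 h, 21.9, 15.5 and 80.8 at 2 h and 34.1, 30.1 and 25.6 at 24 h. All libraries at 2 h and at 24 h were above all those at 0 h, and at 2 h replicate 3 was several times the others. The log2 fold change was 1.61 ± 0.53 (SE) at 2 h and 1.58 ± 0.53 at 24 h, with adjusted p of 0.21 and 0.023, so that neither passed the test. The 24 h difference passed in the fit of the 6 libraries at 0 h and 24 h alone (adjusted p = 0.0019 from limma). It also passed without replicate 3 of every time point (2.01, adjusted p = 8e-05). That alternative was added after seeing the data, and it takes out the highest INSIG1 values at 0 h and 2 h.
Of the summed INSIG FPKM, INSIG2 made up 56.8%, 50.1% and 34.1% at 0 h, 42.7%, 44.6% and 22.0% at 1 h, 34.0%, 41.2% and 14.7% at 2 h and 73.0%, 78.3% and 79.4% at 24 h. The 24 h shares were above all others, and the lowest share at each earlier time was in replicate 3. The mean went from 47.0% ± 11.6 to 76.9% ± 3.4 (SD, n = 3) between 0 h and 24 h, with a two-sided exact permutation p of 0.1, the smallest that 3 against 3 libraries allow.

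SREBF2 (ENSG00000198911, chr22:42229109-42303310, plus strand), which encodes the SREBP that acts mainly on cholesterol genes, measured 13.4, 19.1 and 26.2 FPKM at 0 h, 18.4, 20.6 and 36.6 at 2 h and 51.9, 50.3 and 56.8 at 24 h. The 24 h libraries were all above the highest earlier one. Its log2 fold change at 24 h was 1.46 ± 0.32 (SE) with an adjusted p of 0.0021. SREBF1, which encodes the SREBP with more weight on fatty acid genes, measured 23.4, 33.8 and 37.3 FPKM at 0 h and 36.3, 28.8 and 40.7 at 24 h, with overlapping groups and a log2 fold change of 0.17 (95% interval −0.45 to 0.80). SCAP, the escort of SREBP, measured between 13.0 and 16.8 FPKM in all 12 libraries, with a 24 h log2 fold change of −0.05 (95% interval −0.29 to 0.19). MBTPS1, the site-1 protease, stood at 42.5 ± 2.9 FPKM at 0 h and 47.1 ± 2.9 at 24 h (SD, n = 3), a log2 fold change of 0.15 with an adjusted p of 0.28.

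**Figure D2:**
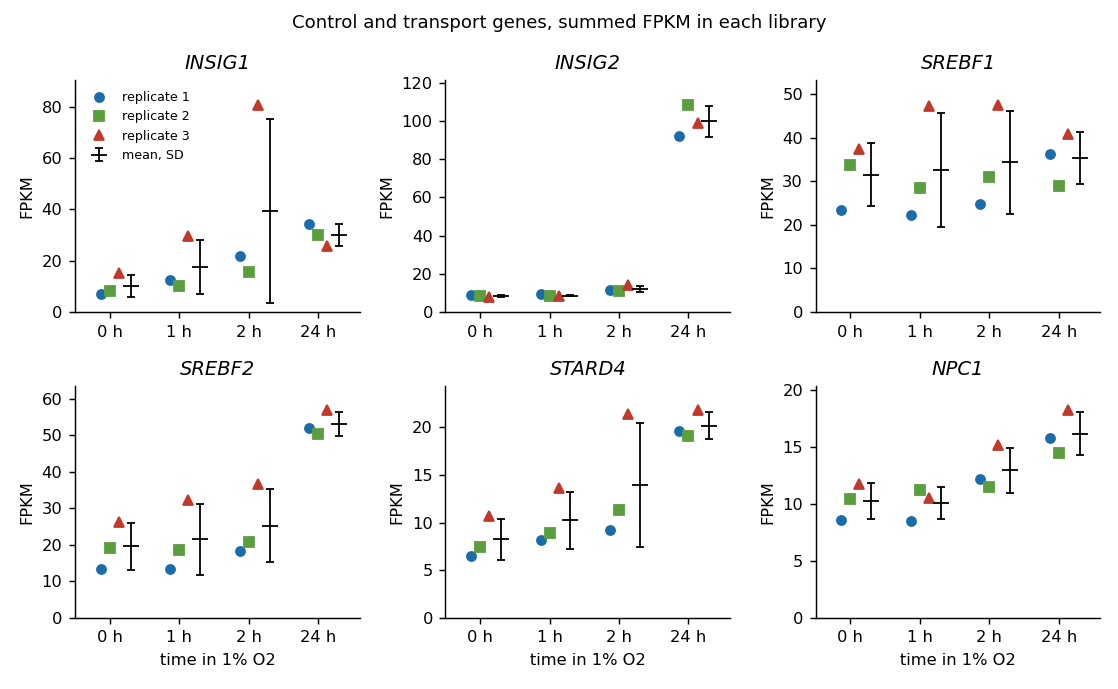
Summed FPKM in each library against time in 1% O2 for INSIG1, INSIG2, SREBF1, SREBF2, STARD4 and NPC1, with a marker for each replicate number and the mean and SD of 3 libraries in black; every vertical axis starts at 0. INSIG2 is near 8.44 FPKM at 0 h and 99.8 FPKM at 24 h, and replicate 3 of INSIG1 at 2 h stands at 80.8 FPKM.

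Among the transport genes, STARD4 (ENSG00000164211, chr5:110831731-110848288, minus strand), a carrier of cholesterol between membranes, measured 6.54, 7.47 and 10.7 FPKM at 0 h, 9.20, 11.3 and 21.4 at 2 h and 19.6, 19.1 and 21.8 at 24 h. The 24 h libraries lay above all those at 0 h, while replicate 3 at 2 h was already within their range. The log2 fold change at 24 h was 1.27 ± 0.28 (SE) with an adjusted p of 0.0021. NPC1, which moves cholesterol out of the lysosome, measured 8.57, 10.4 and 11.7 FPKM at 0 h and 15.8, 14.5 and 18.2 at 24 h, with no overlap, a log2 fold change of 0.64 ± 0.15 and an adjusted p of 0.0038. Without 0 h replicate 1, INSIG2 alone of the 27 genes was still called higher, and the adjusted p was 0.012 for SREBF2, 0.011 for STARD4 and 0.021 for NPC1. NPC1 also failed to pass without 0 h replicate 2 (adjusted p = 0.012 from limma), without 24 h replicate 3 (0.016) and in TPM over transcripts of at least 300 bases (0.021). On a TPM scale, where the median log2 fold change of all genes at 24 h moved to −0.78, INSIG2 alone passed higher, and of the 5 genes that passed on the FPKM scale NPC1 and GGPS1 changed sign.

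The 8 enzymes of the isoprenoid steps from acetyl-CoA had log2 fold changes in both directions at 24 h, with a median of −0.25. GGPS1 (ENSG00000152904, chr1:235490665-235507847, plus strand), which makes geranylgeranyl diphosphate for protein prenylation and so leads away from sterols, was the only enzyme of the 19 to pass higher at 24 h. It measured 13.6, 12.2 and 14.8 FPKM at 0 h and 24.5, 25.8 and 20.5 at 24 h, with no overlap, a log2 fold change of 0.78 ± 0.13 (SE) and an adjusted p of 0.00025. MVK (mevalonate kinase) was at 6.79, 6.58 and 9.46 FPKM at 0 h and 6.07, 4.88 and 4.55 at 24 h, and PMVK, the next kinase, at 16.9, 19.1 and 16.5 and then 12.8, 13.8 and 14.3. Neither overlapped between the groups and neither passed, with adjusted p of 0.053 and 0.06. The remaining members were ACAT2 (which condenses acetyl-CoA) at −0.42, HMGCS1 (HMG-CoA synthase) at −0.21, MVD (mevalonate diphosphate decarboxylase) at 0.07, IDI1 (isopentenyl diphosphate isomerase) at −0.13 and FDPS (farnesyl diphosphate synthase) at −0.29 as log2 fold changes at 24 h. All 5 had overlapping groups and adjusted p between 0.14 and 0.75. Without 24 h replicate 1, FDPS passed lower, with a log2 fold change of −0.50 and an adjusted p of 0.0017 from limma.

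The enzymes that make and close squalene did not pass at 24 h. FDFT1, squalene synthase, measured 44.6, 45.1 and 64.3 FPKM at 0 h and 93.0, 43.3 and 39.6 at 24 h, so that replicate 1 stood apart at 24 h. Its log2 fold change was 0.10 with a 95% interval from −0.61 to 0.81, and −0.29 without 24 h replicate 1. SQLE, the squalene epoxidase, measured 23.4, 24.6 and 31.7 FPKM at 0 h and 28.9, 22.4 and 24.5 at 24 h, a log2 fold change of −0.07 (95% interval −0.49 to 0.36). LSS, which closes the ring, went from 8.68 ± 2.17 to 11.2 ± 1.3 FPKM (SD, n = 3), a log2 fold change of 0.38 with an adjusted p of 0.33.

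The falls that passed the test were in the steps after lanosterol. EBP (ENSG00000147155, chrX:48380187-48387104, plus strand), the isomerase that shifts the double bond of the sterol ring, measured 70.8, 75.0 and 73.4 FPKM at 0 h, between 70.7 and 75.1 in all libraries at 1 h and 2 h, and 52.4, 38.4 and 26.3 at 24 h. Its 24 h libraries lay below all 9 earlier ones and were spread widely among themselves. The log2 fold change was −0.95 ± 0.18 (SE) with an adjusted p of 0.0007, and −1.19 without 24 h replicate 1. NSDHL (ENSG00000147383, chrX:151999511-152038273, plus strand), a dehydrogenase of the C4 demethylation complex, measured 17.1, 17.5 and 17.2 FPKM at 0 h and 13.3, 10.2 and 9.77 at 24 h, with no overlap, a log2 fold change of −0.63 ± 0.13 and an adjusted p of 0.0015. Without replicate 3 of every time point its adjusted p was 0.02.
CYP51A1, the lanosterol demethylase, measured 34.8, 31.1 and 41.3 FPKM at 0 h and 22.9, 22.2 and 28.7 at 24 h. The groups did not overlap, and the log2 fold change of −0.53 ± 0.18 (SE) had an adjusted p of 0.023 and did not pass. MSMO1, the methyl oxidase that acts with NSDHL, was at 0.42 (adjusted p = 0.23 from limma). HSD17B7, the ketoreductase of the same complex, was at 0.20, and TM7SF2 (a sterol reductase), SC5D (the desaturase of the B ring) and DHCR7 (the last reductase) were at 0.12, 0.06 and −0.29 as log2 fold changes, all 4 with adjusted p between 0.46 and 0.80 and overlapping groups. None of the 4 oxygen-using enzymes passed at 24 h. CYP51A1 passed with the replicate number as a block (adjusted p = 0.0022 from limma) and on the TPM scale (−1.35, adjusted p = 0.0082). The replicate numbers were not taken to pair the samples at 24 h, so the block has little basis there. The signs of SQLE and SC5D, both near 0, turned when 1 library was left out.

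**Figure D3:**
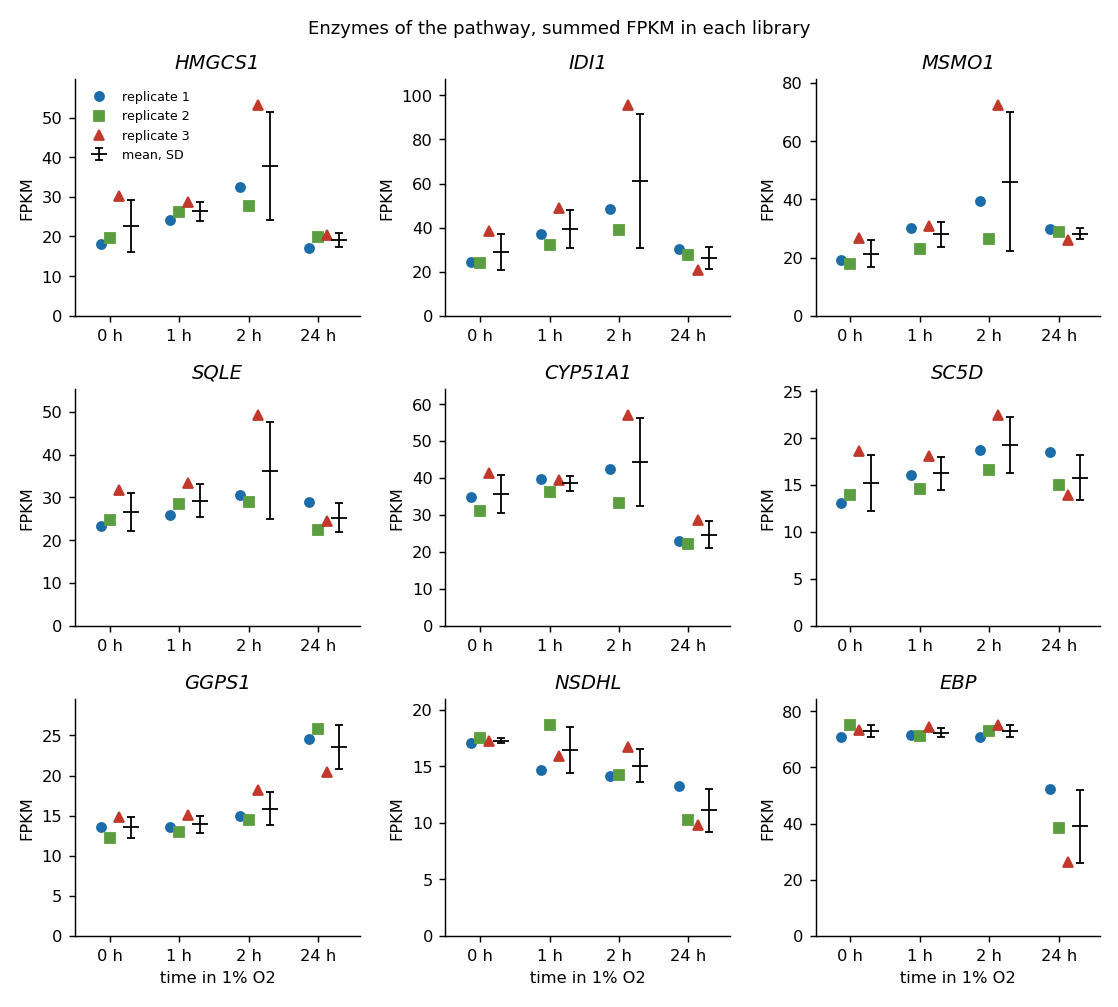
Summed FPKM in each library against time in 1% O2 for 9 enzymes, with a marker for each replicate number and the mean and SD of 3 libraries in black; every vertical axis starts at 0. Replicate 3 is highest at 2 h for HMGCS1, IDI1, MSMO1, SQLE, CYP51A1 and SC5D, and EBP falls from 73.1 FPKM at 0 h to 39.1 FPKM at 24 h.

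At 1 h and 2 h, 0 of the 27 genes passed the test in limma, where 0.006% and 0.024% of all genes passed higher; at an unadjusted p under 0.05 there were 0 and 6 of 27, beside 4.61% and 15.3% of all genes. The 6 at 2 h were INSIG1, INSIG2, STARD4, HMGCS1, IDI1 and MSMO1. IDI1 measured 24.2, 24.1 and 38.4 FPKM at 0 h and 48.6, 38.7 and 95.8 at 2 h, a log2 fold change of 0.99 ± 0.30 (SE) with an adjusted p of 0.18. MSMO1 measured 19.2, 17.9 and 26.6 FPKM and then 39.2, 26.5 and 72.5, a log2 fold change of 1.00 ± 0.28 with an adjusted p of 0.15. HMGCS1 measured 18.0, 19.7 and 30.1 FPKM and then 32.6, 27.6 and 53.3, a log2 fold change of 0.71 ± 0.23 with an adjusted p of 0.2. All 3 overlapped with their 0 h range at 24 h.
With 1 library left out at a time, the log2 fold change at 2 h ranged from 0.91 to 2.08 for INSIG1, 0.61 to 1.26 for IDI1, 0.61 to 1.33 for MSMO1, 0.44 to 0.93 for HMGCS1, 0.32 to 0.91 for STARD4, 0.38 to 0.55 for INSIG2 and 0.17 to 0.55 for SQLE. The lowest value of each came without 2 h replicate 3.
INSIG1, INSIG2 and IDI1 were higher at 2 h without overlap with 0 h, 3 of 27 genes beside 12.2% of all genes. NSDHL was lower without overlap, at 14.2, 14.3 and 16.7 FPKM at 2 h, 1 of 27 beside 13.1%. The log2 fold change at 2 h was above 0 for 21 of 27 genes, with a median of 0.21, and for 47.3% of all genes. When each 2 h library was set against the 0 h library with the same number, 13 of 27 genes were higher in all 3 pairs, and 25.2% of all genes were. The 13 included the 4 oxygen-using enzymes, whose log2 fold changes over the groups were 1.00 for MSMO1, 0.41 for SQLE, 0.34 for SC5D and 0.28 for CYP51A1. The others of the 13 were HMGCS1, IDI1, FDFT1, GGPS1, INSIG1, INSIG2, SREBF2, STARD4 and NPC1, so the rise was not particular to enzymes that use oxygen. These genes are measured in the same libraries and are not independent of one another.

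The spread between replicates followed the replicate number up to 2 h. Replicate 3 held the highest value of its time point for 22 of the 27 genes at 0 h, 23 at 1 h and 25 at 2 h, while it was highest for 33.6%, 36.0% and 35.0% of all genes at these times. At 24 h it was highest for 9 of 27 and for 33.8% of all genes, and replicate 1 for 16 of 27 and for 40.0%. ANKRD37, among the hypoxia-responsive genes, was also highest in replicate 3 at 2 h, with 8.12, 9.91 and 35.5 FPKM, and its part in the values of the sterol genes was not tested.

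Of the 395 transcripts, 169 were tested at 24 h, and 9 passed higher and 3 lower, beside 6.03% and 8.59% of all 62162 transcripts tested. The higher ones came from INSIG2, SREBF2, SREBF1, GGPS1 and MBTPS1, and the lower ones from SREBF1, EBP and FDPS. Of the 9, 4 had enough signal to be tested only through their 24 h libraries (ENST00000485520 of INSIG2, ENST00000395751 and ENST00000469356 of SREBF1 and ENST00000570064 of MBTPS1). The count of 9 was 5 without 0 h replicate 1, 0 h replicate 3 or 24 h replicate 2 and 4 without 24 h replicate 1. The count of 3 was 0 without any 1 of the 0 h replicates and 1 without 24 h replicate 2.
The main coding transcript of INSIG2 (ENST00000245787, 2590 bases) went from 4.63 ± 0.67 to 50.5 ± 11.8 FPKM (SD, n = 3), its log2 fold change being 3.29 and an adjusted p of 2.5e-06. A transcript of 574 bases annotated for nonsense-mediated decay (ENST00000411929) went from 2.00 ± 0.47 to 33.3 ± 3.6 FPKM, a log2 fold change of 3.77 with an adjusted p of 5.8e-06; it shares its start-site group with the coding one. Noncoding transcripts made up 41.9% ± 10.5 of INSIG2 FPKM at 0 h and 47.9% ± 8.3 (SD, n = 3) at 24 h, with an exact permutation p of 0.5. INSIG2 transcript ENST00000479999 (532 bases, no coding sequence defined), of another start-site group, went from 1.20 ± 0.69 to 11.7 ± 6.0 FPKM.

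The SREBF2 change was carried by its coding transcript ENST00000361204 (5240 bases), at 11.6, 16.0 and 21.2 FPKM at 0 h and 45.7, 45.5 and 52.3 at 24 h, with a log2 fold change of 1.57 and an adjusted p of 0.0057. SREBF1, whose summed groups overlapped, had transcripts with differences in either direction. Its main coding transcript ENST00000261646 (4178 bases) measured 13.4, 15.5 and 21.1 FPKM at 0 h and 6.75, 5.83 and 11.6 at 24 h, with no overlap, a log2 fold change of −1.03 ± 0.34 (SE) and an adjusted p of 0.043, which did not pass. A retained-intron transcript of 4653 bases, ENST00000395751, measured 0, 0.0893 and 0 FPKM in the 0 h libraries and 2.33, 1.85 and 2.69 in those of 24 h. ENST00000578469, annotated for nonsense-mediated decay, went from 1.90 ± 0.38 to 0.535 ± 0.244 FPKM (SD, n = 3) with an adjusted p of 0.0094.
The start-site group of ENST00000261646 held 66.5%, 52.9% and 63.5% of SREBF1 FPKM at 0 h and 30.7%, 34.9% and 38.9% at 24 h, and retained-intron transcripts held 15.7%, 25.8% and 24.2% and then 44.8%, 33.0% and 43.6%. Neither share overlapped between 0 h and 24 h, and the exact permutation p was 0.1 for both, the smallest possible. Both shares at 1 h and 2 h overlapped with those at 0 h. The noncoding share of SREBF2 lay lower without overlap at 24 h, also with an exact permutation p of 0.1. It was 13.4%, 15.6% and 19.2% at 0 h and 11.7%, 9.40% and 7.58% at 24 h. In between it did not move steadily, at 10.7%, 6.74% and 9.26% at 1 h and 19.6%, 13.6% and 13.6% at 2 h. The 2 h values overlapped with those at 0 h.

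**Figure D4:**
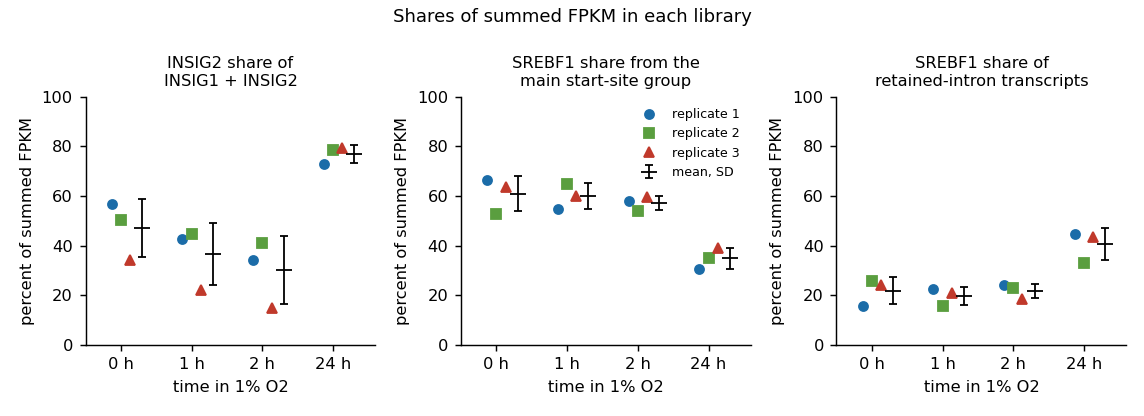
Percent of summed FPKM in each library against time in 1% O2, with a marker for each replicate number and the mean and SD of 3 libraries in black; the panels give INSIG2 out of INSIG1 plus INSIG2, the start-site group led by ENST00000261646 out of SREBF1, and retained-intron transcripts out of SREBF1. At 24 h the first share is 76.9% on average, and the SREBF1 shares are 34.8% and 40.5%.

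EBP fell in its most abundant transcript, ENST00000276096 (904 bases, no coding sequence defined), from 37.8 ± 2.8 to 20.2 ± 7.7 FPKM (SD, n = 3) with an adjusted p of 0.0067. The noncoding share of EBP was 65.9% ± 3.8 at 0 h and 68.8% ± 3.6 at 24 h. A partly annotated FDPS transcript of 1335 bases went from 9.07 ± 1.57 to 4.52 ± 1.22 FPKM with an adjusted p of 0.0096, while the most abundant FDPS transcript, also partly annotated (1383 bases), measured 34.5 ± 2.2 and 29.8 ± 10.4 FPKM and did not pass. GGPS1 transcript ENST00000471812 (850 bases) measured 0, 0.314 and 0.423 FPKM at 0 h and 5.97, 3.33 and 0.732 at 24 h, and the retained-intron transcript ENST00000570064 of MBTPS1 went from 0.24 ± 0.24 to 1.34 ± 0.25 FPKM. The most abundant transcripts of these genes did not pass, with a partly annotated GGPS1 transcript of 1574 bases, nearest to ENST00000282841, at 4.46 ± 0.24 and 6.09 ± 0.56 FPKM and ENST00000343411 of MBTPS1 at 33.0 ± 3.8 and 34.8 ± 2.3.

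Genes around the pathway were taken from further lists, which like the main list were chosen with earlier results of these data known. Their counts stand beside the 18.3% of all genes that passed higher at 24 h and the 23.2% that passed lower. In SREBP processing and sterol sensing, 2 of 14 genes passed higher at 24 h and 6 lower, with a median log2 fold change of −0.48. The ubiquitin ligase SYVN1 was among those that passed higher, at 0.55. In sterol transport, storage and efflux, 5 of 16 passed higher and 2 lower, with a median of 0.26. The 5 include ABCG1, a sterol exporter at 0.208 FPKM at 0 h and 1.25 at 24 h, which had enough signal to be tested only through its 24 h libraries. TMEM97, the sigma-2 receptor that binds NPC1, was called lower, from 49.1, 43.9 and 41.6 FPKM to 13.7, 8.98 and 9.45, a log2 fold change of −2.04. The others that passed in this list were GRAMD1A, GRAMD1B, OSBPL2 and STARD3 higher (0.97, 0.84, 0.78 and 0.53) and SOAT1, which esterifies cholesterol, lower (−0.58).
Genes that use isoprenoids passed lower in 7 of 13 cases and higher in 1, the farnesyltransferase subunit FNTA (0.72), with a median of −0.56. ZMPSTE24, the protease that matures prelamin A, measured 53.7, 45.2 and 46.9 FPKM at 0 h and 11.4, 9.73 and 9.55 at 24 h, a log2 fold change of −2.20. PDSS1, which makes the side chain of ubiquinone, was at −2.04 and DHDDS, of dolichol synthesis, at −1.03. In the fatty acid arm of SREBP 1 of 11 passed higher (LPIN1, 0.69) and 3 lower (ACLY, ACSL3 and ME1, at −0.48, −0.68 and −0.38), with a median of −0.18; the higher count was 0 without 0 h replicate 1 or 2 or 24 h replicate 2 or 3, and the lower count was 1 without 0 h replicate 3. Of 3 further sterol enzymes tested, LBR, a sterol reductase of the nuclear envelope, passed lower at −0.69, and IDI2 was too low to test. Genes of these lists that passed at less than a log2 fold change of 1 were named after their values were seen.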

How the data were processed

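The authors aligned paired 100-base strand-specific reads to hg19 with Mapsplice, assembled transcripts with Cufflinks, merged them with Ensembl and deposited FPKM values per transcript and library. The submitters' processing notes also list CASAVA 1.8.2. FPKM does not carry the read depth behind each value, and counts were not used here, so no counting interval is given. Transcripts with class codes = and j were summed per gene name. Genes with more than 0.5 FPKM in at least 3 libraries were tested with limma 3.58.1 (R 4.3.3; lmFit, eBayes with trend, all 12 libraries) on log2(FPKM + 0.5), two-sided, and transcripts likewise; the steps were tested on simulated data. Exact tests used scipy 1.17.1, tables pandas 2.3.3 and numpy 2.4.6, and figures matplotlib 3.10.9, in Python 3.11.15. Transcript types and positions came from GENCODE lifted to GRCh37, and promoters from RefSeq.

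The members and lists were chosen with earlier results of these data known. Every member was named, and of the other lists at most 3 called genes per direction; some genes of these lists are not reported here. The rule for transcripts took the most abundant of each member and at most 3 that passed; only members with a passing transcript are described by transcript, and ENST00000485520 was named besides. The replicates are called biological by the study and only numbered in the labels; how separate the cultures were is not described, so p-values measure the spread between these libraries, which may be partly technical. Across genes, the deviations of 0 h libraries correlated by 0.129 to 0.362 with those of the same number at 2 h. The ranges were 0.0954 to 0.34 for 1 h and −0.000785 to 0.242 for 24 h. The numbers were therefore taken to pair the samples at 2 h and not at 24 h. The correlations for 1 h were much like those for 2 h, but counts over same-numbered pairs are given for 2 h alone. Fold changes understate the change of low genes. FDPS, HSD17B7, IDI1 and CYP51A1 have pseudogenes, and LSS, CYP51A1, TM7SF2 and EBP share a locus with another gene, so reads could be split between them.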

Additional observations from a re-analysis of the deposited data

How the results depend on the processing

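Of 646 values of single genes under the alternatives, 595 kept their direction and their side of the threshold, 9 lost the test, 7 gained it and 35 changed sign; median-of-ratios scaling, either other pseudocount, the gene filters, the transcript filter and whole loci changed none at 24 h. FPKM holds no depth, and the large share of short transcripts in the FPKM sum (57.0% to 87.7%) sets the TPM scale.

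On the TPM scale the median of all genes was −0.94 at 2 h and −0.78 at 24 h. There 1 gene was called higher and 4 lower (MVK, CYP51A1, NSDHL and EBP), and 1 passed higher and 4 lower at any fold. Log2 fold changes that changed sign were, at 24 h, −0.76 for MVD, −0.75 for FDFT1, −0.41 for LSS, −0.62 for TM7SF2, −0.42 for MSMO1, −0.55 for HSD17B7, −0.74 for SC5D, −0.67 for SREBF1, −0.19 for NPC1, −0.061 for GGPS1 and −0.70 for MBTPS1, and at 2 h −0.355 for HMGCS1, −0.087 for IDI1, −0.0755 for MSMO1, −0.645 for SQLE, −0.52 for INSIG2 and −0.34 for STARD4. In TPM over transcripts of at least 300 bases MVD was at −0.043 and SC5D at −0.034, 1 gene, EBP, was called lower and NPC1 lost the test (adjusted p = 0.021 from limma). With class code = alone PMVK was at 0.009.

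With an adjusted p under 0.01 at any fold 5 genes were higher and 2 lower at 24 h, and with one under 0.05, 6 and 3. Without replicate 3 of all 4 time points, an alternative added after seeing the data, IDI1 was at 0.25, SQLE at 0.084 and DHCR7 at 0.022 at 24 h, 4 genes were called higher and 1 gene passed lower. Leaving out 1 library at a time gave 1 to 3 genes called higher, 0 to 1 called lower, 2 to 5 passing higher, 2 to 3 passing lower, and 4 to 7 transcripts passing higher and 0 to 3 lower. In these fits HMGCS1 ranged from −0.35 to 0.015, MVD from −0.067 to 0.19, IDI1 from −0.24 to 0.093, FDFT1 from −0.29 to 0.33, SQLE from −0.17 to 0.066, TM7SF2 from −0.049 to 0.29, SC5D from −0.059 to 0.21, SREBF1 from −0.023 to 0.31 and SCAP from −0.16 to 0.016; without a turn of sign, ACAT2 ranged from −0.68 to −0.18, FDPS from −0.50 to −0.13, LSS from 0.18 to 0.54, HSD17B7 from 0.042 to 0.38, DHCR7 from −0.59 to −0.076 and MBTPS1 from 0.095 to 0.20. With a pseudocount of 0.1, 5 transcripts passed higher and 1 lower.

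For the other lists on the TPM scale, 0 genes passed higher in SREBP processing, transport, isoprenoid use and the fatty acid arm. In SREBP processing 1 passed higher in TPM over longer transcripts, over whole loci and without replicate 3 of all time points. In transport 3 did with filtered transcripts and 2 with class code = alone. In the fatty acid arm 0 passed higher in TPM over longer transcripts, with no gene filter, with filtered transcripts and with class code = alone, and 0 to 1 with libraries left out; 1 to 4 passed lower, and 1 without replicate 3 of all time points.

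With the replicate block, INSIG1 (adjusted p = 0.0055 from limma) and CYP51A1 (0.0022) also passed at 24 h, and 3 genes of the fatty acid arm passed higher. At 24 h the numbers were not taken to pair the samples, so the block has little basis for these results. At 2 h, where the numbers pair the samples, the block left 0 of the 27 genes past the threshold, with adjusted p of 0.053 to 0.08 for the 6 genes named there, and it changed no other call among the 27 genes. Of 36 library and time point combinations 26 correlated best with their own number. The causes of these changes were not tested.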
